A study of Mus musculus with 51 samples.

Results

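The genes of mitosis and the spindle were followed through the mammary gland (MG) and blood of 2 mouse strains. Of 42 genes listed for mitotic entry, the spindle, the kinetochore and cytokinesis, 38 had a probe set annotated to that gene alone, out of 11807 genes that the arrays measured in this way. Ccnb1, Nuf2, Cdca8 and Espl1 were not matched to such a probe set and were not analysed here. Each gene is given at its brightest probe set by the mean over the MG arrays, and 15 of the 38 had further probe sets, which did not always go the same way. Against sham, a further probe set differed in the opposite direction for 2 of the 15 genes in BALB/c after LD and 3 after HD at 4 hr, and for 6 and 5 in C57BL/6. At 1 month this was so for 12 and 4 genes in BALB/c and for 3 and 5 in C57BL/6.

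The MG arrays came from virgin BALB/c females, a strain sensitive to radiation-induced mammary cancer, and virgin C57BL/6 females, a more resistant strain. From 8 weeks of age, mice of each strain received 4 weekly X-ray doses of 7.5 cGy (low dose, LD), 4 weekly doses of 1.8 Gy (high dose, HD) or 4 sham exposures, and glands without their lymph node were taken 4 hr or 1 month after the last exposure. In BALB/c there were 3 sham, 4 LD and 4 HD arrays at 4 hr and 3, 2 and 4 at 1 month. In C57BL/6 there were 3, 4 and 4 arrays at 4 hr and 4 in every group at 1 month. Blood came from 4 unirradiated females of each strain at 9 weeks of age. Each array held the RNA of 1 mouse, and the study states that the mice were not synchronised for the estrous cycle. All values are log2 signals, and a difference of 1 is a doubling of signal. Whole glands were measured, so that fewer dividing cells and less RNA per cell cannot be told apart.

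When a cell enters mitosis, cyclin-bound CDK1 and the Polo-like and Aurora kinases drive chromosome condensation and spindle assembly. Kinesin motors and microtubule binding proteins shape the spindle, kinetochore proteins attach the chromosomes, and the spindle assembly checkpoint holds back the anaphase-promoting complex (APC/C) until all are attached. Transcripts of these proteins accumulate in the late cell cycle, under complexes that bind CCAAT boxes and a short element named CHR (cell cycle genes homology region) close to the start of transcription, and p53 and p21 repress them. In the adult MG, division is found mostly in the epithelium, and it varies with the estrous cycle.

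RefSeq promoters of GRCm38.p6 were searched for these elements, with 34 promoters for 32 of the 38 genes (Aurkb, Ccna2, Kif20a, Pbk, Smc4 and Tpx2 were not searched). The CHR was searched as TTTGAA and TTCGAA on both strands, which also finds TTCAAA, and the CCAAT box as CCAAT, or ATTGG on the other strand, with overlapping matches counted separately. From 250 bases before to 50 bases after the start, 27 of the 34 promoters (79.4%) held the letters of the CHR, against 19.2% of all 32851 promoters, and 28 (82.4%) held those of the CCAAT box, against 37.4%. In the 50 bases after the start alone, 17 of the 34 promoters held the CHR letters, against 2.46% of all promoters. Among 49 other mitosis genes the CHR letters stood in 20 of 47 promoters (42.6%) and the CCAAT letters in 28 (59.6%). In the 250 bases before the start alone, the CCAAT letters stood in 82.4% of the 34 promoters, against 33.8% of all promoters. There they also stood in 10 of 12 promoters of replication licensing genes (83.3%). For DNA synthesis genes it was 7 of 18 (38.9%) and for p53 targets 7 of 17 (41.2%). Of the 32 genes searched, those without the CHR letters were Birc5, Cenpe, Cks2, Mad2l1, Melk, Nek2 and Nusap1. These letters are short, and a match is not a binding site. Of 35 CHR sites in this window, counted for each annotated start, 23 lay within 50 bases of the start. Farther off were those of Bub1b (188 bases before the start) and Mki67 (98 and 116 bases before), among others. Sites near the start in genes with different roles follow, each read on the strand of its gene. The CHR letters are in capitals, with 10 bases on either side.
Cdk1, chr10:69352912-69352937, minus strand, 15 bases before the start: ccgcggcgagTTTGAAactgctggca
Ccnb2, chr9:70421535-70421560, minus strand, 5 bases after the start: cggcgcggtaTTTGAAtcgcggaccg
Plk1, chr7:122159455-122159480, plus strand, 31 bases after the start: cagcgccgcgTTTGAAttcggggagg
Aurka, chr2:172370523-172370548, minus strand, 33 bases after the start: aaggagaaccTTTGAAttgtaacggc
Bub1, chr2:127831830-127831855, minus strand, 15 bases after the start: gcgcggggaaTTCGAAtcgccggcgg
Ttk, chr9:83834686-83834711, plus strand, 8 bases after the start: gcggggaaatTTCAAAcgtgtttccg
Cenpa, chr5:30666892-30666917, plus strand, 17 bases after the start: cgggtgatttTTTGAActgctggcga
Cenpf, chr1:189688069-189688094, minus strand, 3 bases after the start: cggcgggcagTTTGAAtcgctcgtgc
Kif11, chr19:37376353-37376378, plus strand, 19 bases before the start: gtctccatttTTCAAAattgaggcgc
Prc1, chr7:80294436-80294461, plus strand, 5 bases before the start: tctggctcggTTTGAAttccgcgggg
Racgap1, chr15:99651636-99651661, minus strand, 6 bases after the start: ggtgcgtgatTTTGAAccggatctgg
Ube2c, chr2:164769890-164769915, plus strand, 29 bases before the start: agggttgcaaTTCAAAcgcgggcggc
The sites shown were taken from the 23 within 50 bases of a start, so that their nearness follows from the choice. Prc1 has a pair of annotated starts, and the distance is from the nearer one.

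Whole stretches of 250 bases upstream of the start are shown for Cdk1, with both elements, for Top2a, with more matches of both, and for Birc5, with no match of either in this stretch. Capitals mark the CHR and CCAAT letters.
Cdk1, chr10:69352913-69353162, minus strand: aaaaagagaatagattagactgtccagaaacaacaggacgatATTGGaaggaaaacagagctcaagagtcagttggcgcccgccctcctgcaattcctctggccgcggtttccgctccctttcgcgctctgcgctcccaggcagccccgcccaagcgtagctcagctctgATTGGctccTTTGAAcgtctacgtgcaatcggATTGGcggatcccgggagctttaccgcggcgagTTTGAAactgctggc
Top2a, chr11:99024190-99024439, minus strand: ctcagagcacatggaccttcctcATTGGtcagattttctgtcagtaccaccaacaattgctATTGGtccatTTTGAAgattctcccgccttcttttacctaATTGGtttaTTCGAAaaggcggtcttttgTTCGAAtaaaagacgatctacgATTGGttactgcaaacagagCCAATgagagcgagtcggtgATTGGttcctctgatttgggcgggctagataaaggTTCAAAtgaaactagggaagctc
Birc5, chr11:117848987-117849236, plus strand: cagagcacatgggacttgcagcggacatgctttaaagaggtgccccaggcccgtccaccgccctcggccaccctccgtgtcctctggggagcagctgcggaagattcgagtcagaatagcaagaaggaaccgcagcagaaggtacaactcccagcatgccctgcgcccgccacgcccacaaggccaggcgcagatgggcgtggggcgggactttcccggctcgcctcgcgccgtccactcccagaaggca
Cdk1 held 2 CHR and 3 CCAAT matches in this stretch and Top2a held 4 and 6. All 3 genes belong to those that followed the other mitosis genes closely in level, as given next.

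The 38 genes moved together from mouse to mouse. After each group's mean was taken off, the median correlation between 2 of the genes over the 43 MG arrays was 0.85, and 631 of the 703 pairs lay above 0.5 and 5 below 0. Each gene was then set against the mean of the other 37. The median Pearson's r was 0.939 and the median Spearman's rho 0.9, and 33 genes lay above 0.8. The genes that followed the others most closely were Birc5 (survivin, of the chromosomal passenger complex, r = 0.978), Ccnb2 (a mitotic cyclin, r = 0.978), Cenpf (a kinetochore protein, r = 0.974), Ube2c (the ubiquitin-conjugating enzyme of the APC/C, r = 0.974) and Prc1 (which bundles midzone microtubules, r = 0.972). Bub1, a checkpoint kinase, followed them least (r = 0.117), and Kif23, a midzone kinesin, was next (r = 0.424). These correlations are a description: the points share arrays and one normalization. They leaned in part on 2 arrays with the highest levels, C57BL/6 LD 4 hr replicate 3 and C57BL/6 sham 1 month replicate 3, without which the median r was 0.886 and 26 genes lay above 0.8. Within the strains the median was 0.878 in BALB/c and 0.96 in C57BL/6.

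Several genes were measured by probe sets that did not move alike. For Bub1, the brighter probe set, used here, had a mean of 4.64 and r = 0.117 with the other genes, while a dimmer one, with a mean of 4.13, had r = 0.954. Kif23 was alike (r = 0.424 and 0.854), as was Kif22, a chromosome-arm kinesin (r = 0.765 and 0.934). For Top2a, Cenpf and Nusap1 the brighter probe set followed the others (r = 0.944, 0.974 and 0.969) and the dimmer did not (r = 0.109, 0.149 and 0.213).

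The genes outside the 38 were ranked in the same way. Over the residuals of the 43 arrays, the mean of the 38 was followed most closely by Aspm (a spindle pole protein, r = 0.97), Cep55 (of the midbody, r = 0.96), Ckap2 (r = 0.957), H2ax (r = 0.941) and the condensin subunit Ncapd2 (r = 0.932). Of the 40 most alike, 17 were in a list of other mitosis genes, 4 in a list of DNA synthesis genes and 19 in no list. Foxm1, a transcription factor of late cell cycle genes, had r = 0.485 (rank 393 of 11769 genes), and Mybl2 and E2f1 had r = −0.172 and −0.014. These 3 were dim, at 4.11 to 5.05 (Foxm1), 3.90 to 4.65 (Mybl2) and 4.78 to 5.82 (E2f1), where the medians of the MG arrays lay at 6.16 to 6.36. Their narrow spans limit what these r values show.

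**Figure D1:**
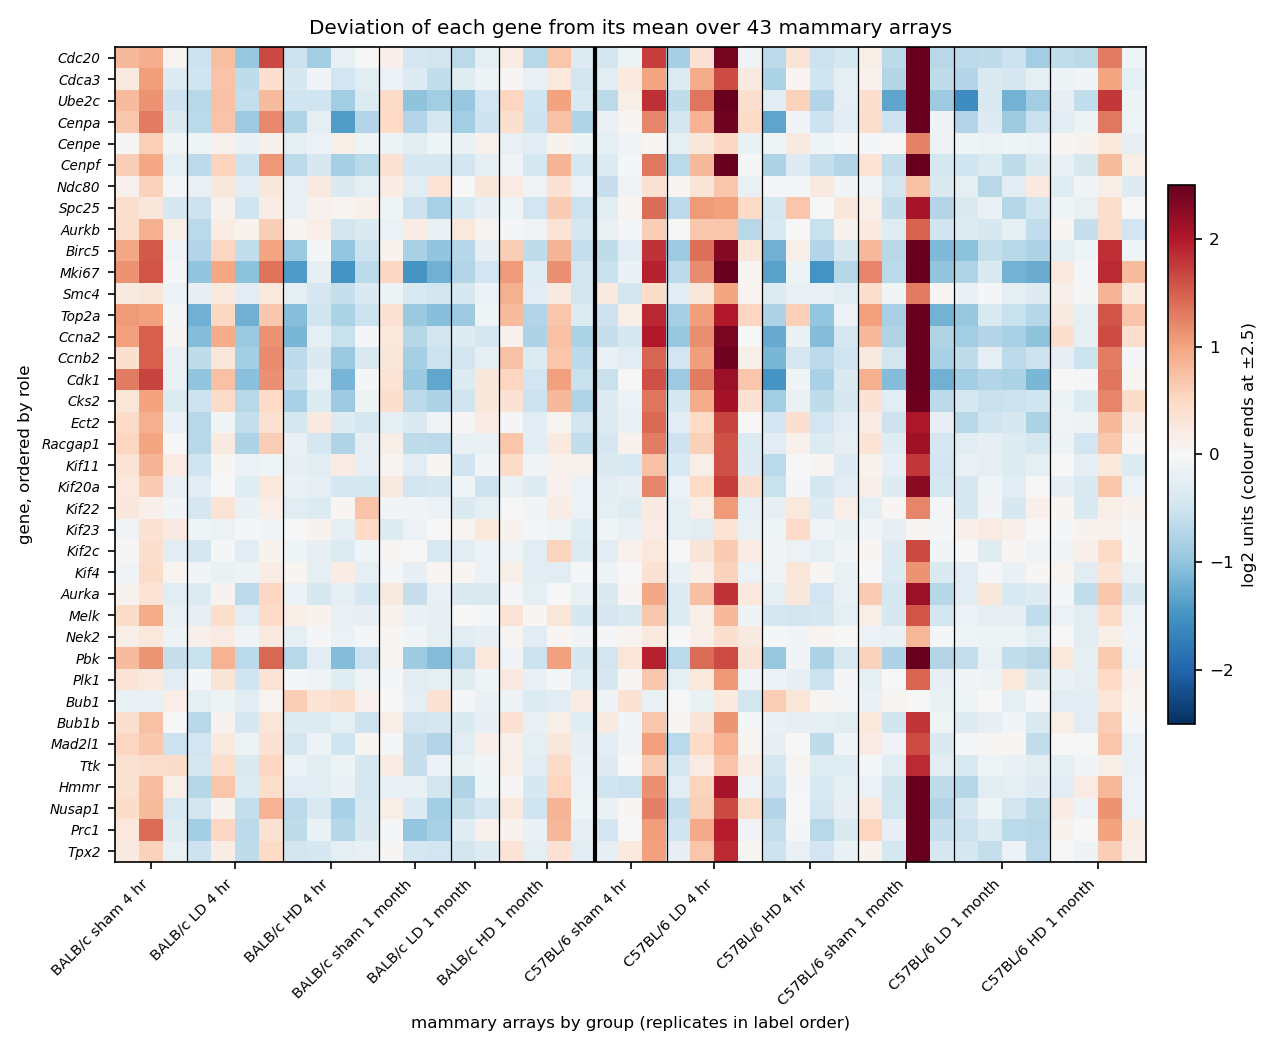
Colour gives the log2 deviation of each of 38 genes (rows, ordered by role) from its mean over 43 MG arrays (columns, by group, BALB/c left of the thick line and C57BL/6 right). Whole columns are red or blue, most of all C57BL/6 sham 1 month replicate 3, while the rows of Bub1 and Kif23 are pale.

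The mean of the 38 genes in an array, as log2 deviation from the mean of 43 arrays, sums this up. In BALB/c at 4 hr it was 0.437, 0.806 and −0.131 in sham, −0.512, 0.346, −0.502 and 0.568 after LD, and −0.391, −0.205, −0.467 and −0.24 after HD. At 1 month in BALB/c it was 0.098, −0.487 and −0.455 in sham, −0.359 and −0.123 after LD, and 0.232, −0.326, 0.436 and −0.334 after HD. The BALB/c arrays of HD at 4 hr lay below all 3 of their sham arrays and close to each other (SD 0.124, n = 4), while sham and LD at 4 hr had an SD of 0.472 (n = 3) and 0.564 (n = 4).

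In C57BL/6 at 4 hr the mean was −0.314, −0.066 and 1.021 in sham, −0.406, 0.619, 1.501 and 0.07 after LD, and −0.526, 0.05, −0.444 and −0.231 after HD. At 1 month in C57BL/6 it was 0.264, −0.434, 2.063 and −0.491 in sham, −0.451, −0.273, −0.401 and −0.46 after LD, and −0.057, −0.214, 0.797 and −0.011 after HD. The C57BL/6 sham arrays at 1 month spanned 2.55 log2 units (SD 1.19, n = 4) and those of LD at 1 month 0.187 (SD 0.086, n = 4). Replicate 3 of those sham arrays had all 38 genes above their own 43-array mean. On the same array the luminal epithelial marker list was 0.865 and the myoepithelial list 1.01 above the middle of the arrays, and the adipocyte list was 0.548 below, and the part of this in the result was not tested.

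**Figure D2:**
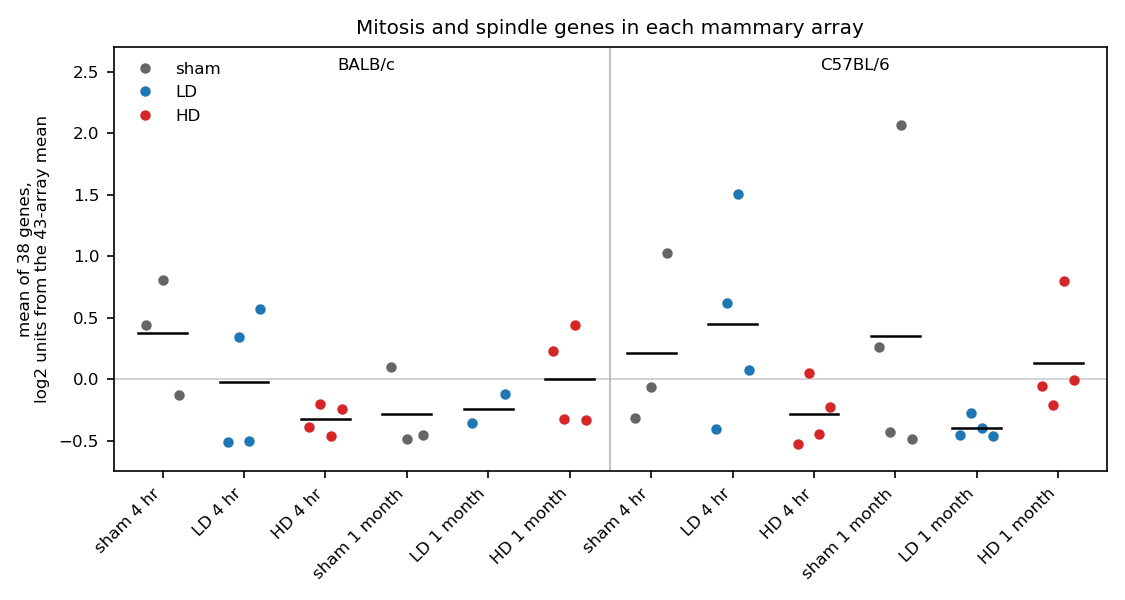
Each point is 1 MG array, placed by the mean log2 deviation of 38 genes from the 43-array mean, and bars are group means. The BALB/c HD 4 hr arrays (−0.467 to −0.205) lie below the BALB/c sham 4 hr arrays, and 1 C57BL/6 sham array at 1 month stands at 2.063.

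Some arrays held transcripts of another tissue. Skeletal muscle transcripts were more than 2 log2 units above the middle of the MG arrays in BALB/c sham 4 hr replicate 1, LD 4 hr replicate 2, HD 4 hr replicate 1 and HD 1 month replicate 3 and in C57BL/6 sham 1 month replicate 2, and T and B cell transcripts were so in BALB/c HD 1 month replicate 1. Liver transcripts were raised in 2 blood arrays. Each strain's MG arrays were on a separate plate, and the effects of plate and strain cannot be told apart. Within a plate and a time, sham, LD and HD arrays lay mostly in different columns.

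The comparison with sham asked how each dose changed the gland. In BALB/c at 4 hr after HD, 37 of the 38 genes had a lower mean than in sham, with a median log2 fold change of −0.64 against −0.004 over all genes. None passed an adjusted p under 0.05 in limma, where 5.9% of all genes did. At an unadjusted p under 0.05, 22 genes were lower, against 11.8% of all genes, and Bub1 was higher, against 10.7%. The groups did not overlap for 12 genes, all lower in HD, against 10.0% of all genes that did not overlap and were lower. At the thresholds of the study for HD, a log2 fold change beyond 0.58 and an unadjusted p under 0.01, 5 genes were lower (Mki67, Birc5, Bub1b, Ttk and Kif11), against 2.93% of all genes.

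The proliferation marker Mki67 had the largest difference. It was 7.98, 8.44 and 6.82 in sham and 5.44, 6.62, 5.35 and 6.20 after HD, so that no HD array reached the lowest sham array. Its log2 fold change was −1.84 (standard error 0.63, adjusted p = 0.0944 in limma). Top2a, which untangles DNA for chromosome separation, was 7.03, 6.99 and 5.92 in sham and 4.90, 5.46, 5.17 and 5.43 after HD, again without overlap, with a log2 fold change of −1.41.

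The cyclin and CDK1 group had a median of −1.25 over 4 genes. Cdk1, the kinase that starts mitosis, was 7.30, 7.70 and 5.80 in sham and 5.42, 5.82, 4.83 and 5.96 after HD, and the lowest sham array lay within the HD arrays. Its log2 fold change was −1.43 (standard error 0.58, adjusted p = 0.162 in limma). Ccna2, the cyclin of S phase and early mitosis, was 6.66, 7.12 and 5.70 in sham and 4.49, 5.41, 5.07 and 5.60 after HD. Ccnb2 differed by −1.15 and the CDK1-binding Cks2 by −0.87.

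At the centromere and in the passenger complex the differences were uneven. Birc5 was 6.06, 6.63 and 4.98 in sham and 4.16, 5.04, 4.12 and 4.54 after HD (log2 fold change −1.42, standard error 0.47, adjusted p = 0.0871 in limma). Cenpa, the histone of centromeres, differed by −1.32 and Cenpf by −1.09. The kinetochore subunits Ndc80 and Spc25 differed by −0.36 and −0.06, and the latter, at 5.18 to 5.49 after HD, lay within the sham range of 4.97 to 5.76.

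In the checkpoint group, Bub1b, which restrains the APC/C, was 5.25, 5.58 and 4.86 in sham and 4.53, 4.51, 4.60 and 4.33 after HD, without overlap (log2 fold change −0.74, standard error 0.23, adjusted p = 0.0703 in limma). The checkpoint kinase Ttk differed by −0.66 and Mad2l1 by −0.47. Cdc20, the APC/C activator that the checkpoint holds back, was 7.02, 7.12 and 6.28 in sham and 5.67, 5.35, 6.03 and 6.23 after HD.

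Among the kinesin motors, Kif11, which pushes the spindle poles apart, had the smallest adjusted p (0.0608 in limma, log2 fold change −0.59, standard error 0.18). It was 5.24, 5.75 and 5.11 in sham and 4.69, 4.62, 5.10 and 4.69 after HD, where the highest HD array lay just under the lowest sham array. A second Kif11 probe set, of like mean signal (4.86 and 4.90), differed by −0.25. The other kinesins differed by −0.57 (Kif20a) to −0.07 (Kif23), with a median of −0.23 over all 6 kinesin genes. These genes were dim, with means over the MG arrays of 4.21 (Kif23) to 5.37 (Kif4). The cyclin and CDK1 genes lay at 5.46 (Ccnb2) to 7.09 (Cks2), so that the medians of these roles do not compare like levels. The mitotic kinases had a median of −0.35 over 5 genes, with Plk1 at −0.24 and Aurka at −0.35. Of the spindle microtubule genes all 4 were lower at an unadjusted p under 0.05, Prc1 by −0.93 and Nusap1 by −0.85, and of cytokinesis both Racgap1 (−0.90) and Ect2 (−0.64).

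With each array left out in turn the median over the 38 genes ran from −0.86 to −0.44. Without BALB/c sham replicate 3, the lowest sham array, 6 genes passed in limma (Birc5, Ect2, Bub1b, Mad2l1, Kif20a and Kif11). The share of all genes that passed in that fit is not given here, so that this count cannot be set against it. Luminal epithelial markers were lower after HD as well: 9 of 11 at an adjusted p under 0.05 in limma, with a median of −1.60. Of the myoepithelial markers 2 of 9 were, where 5.9% of all genes passed in either direction. The part of this in the result was not tested.

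Bub1 was the exception in BALB/c, and its direction hung on the probe set. The brighter was 4.46, 4.44 and 4.80 in sham, 4.41, 4.51, 4.38 and 4.70 after LD and 5.25, 4.97, 5.08 and 4.75 after HD, so that all HD arrays lay above all LD arrays, as for 8.56% of all genes. Against LD it was 0.51 higher after HD (standard error 0.14, adjusted p = 0.0387 in limma), the single one of the 38 genes past the threshold in any of 22 comparisons. In that comparison 7.89% of all genes passed. The dimmer Bub1 probe set, which followed the other genes, differed by −0.39 between HD and LD (standard error 0.19, adjusted p = 0.204 in limma) and by −0.54 between HD and sham, where the brighter differed by 0.45. With the mean of the probe sets the HD to LD difference was 0.06, and the call was also lost without BALB/c HD replicate 1, 2 or 3, without LD replicate 1, 2 or 3, without the arrays with transcripts of another tissue (0.43) and with the plate column as a covariate (0.62).

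**Figure D3:**
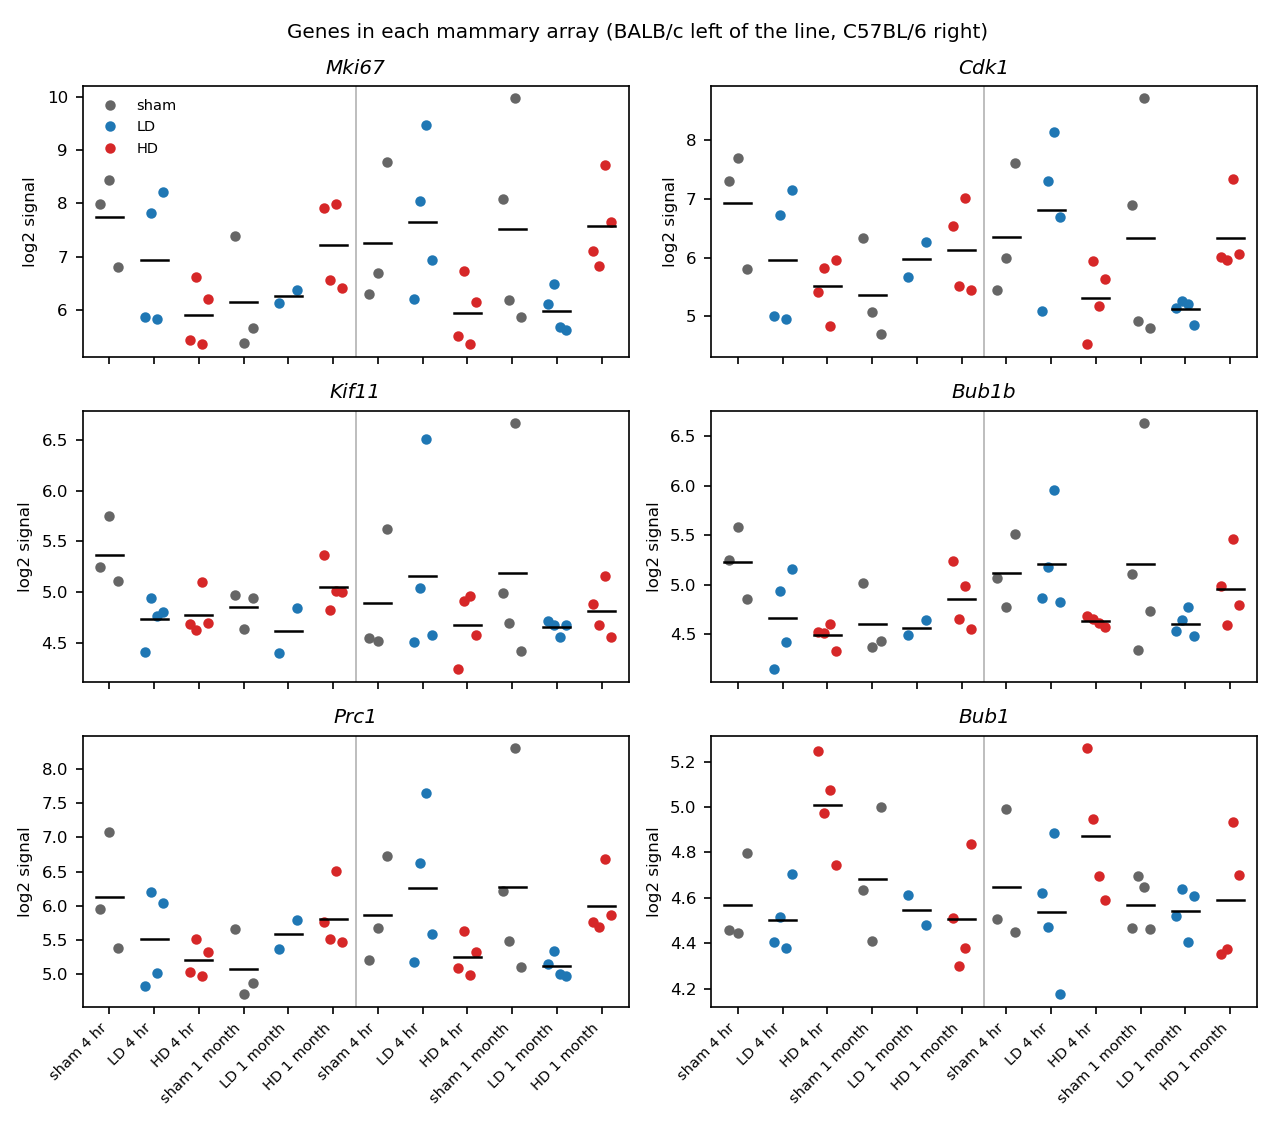
Log2 signals of Mki67, Cdk1, Kif11, Bub1b, Prc1 and Bub1 in each of 43 MG arrays by group, with bars at group means; each panel has its own axis. Bub1 lies at 4.75 to 5.25 in BALB/c HD 4 hr, above LD 4 hr at 4.38 to 4.70, and Mki67, Cdk1 and Prc1 share the high C57BL/6 sham array at 1 month.

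After LD at 4 hr, BALB/c had 37 of 38 genes below sham, with a median of −0.33 against −0.008 over all genes. None passed in limma, nor did any gene of the array (0.0%). At an unadjusted p under 0.05, 3 were lower (Kif11, Ect2 and Bub1b), against 4.35% of all genes. At the thresholds of the study for LD, a log2 fold change beyond 0.58 and an unadjusted p under 0.1, 4 genes were lower (Kif11, Ect2, Top2a and Racgap1), against 0.838% of all genes. Kif11 was 4.41, 4.94, 4.76 and 4.80 after LD, the one gene below all sham arrays, against 4.78% of all genes. Its log2 fold change was −0.64 (standard error 0.18, adjusted p = 0.26 in limma), and that of the second Kif11 probe set was −0.19. The comparisons with sham share the sham arrays.

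The 4 LD arrays fell into a lower and a higher pair for Mki67 and Top2a. Mki67 was 5.86, 7.83, 5.84 and 8.22 after LD, so that replicates 1 and 3 lay below every sham array and replicates 2 and 4 lay among them. Top2a was 4.77, 6.49, 4.76 and 6.64, with the same mice low. Single mice moved the median: leaving out sham replicate 2 gave −0.13, LD replicate 1 −0.19, LD replicate 3 −0.18 and LD replicate 4 −0.55, and leaving out sham replicate 3 gave −0.62. Adjusting for plate column gave −0.85. Macrophage markers lay lower at an unadjusted p under 0.05 in 4 of 10 cases and none passed in limma, and luminal markers had a median of 0.21, with 3 of 11 below sham. HD against LD directly gave a median of −0.24 in BALB/c, with −0.43 to −0.11 over single arrays left out and −0.10 without the arrays with transcripts of another tissue.

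In C57BL/6 at 4 hr after HD, 33 of 38 genes lay below sham, with a median of −0.49 against −0.007 over all genes. No gene of the 38 passed in limma, where 0.872% of all genes did, and none had an unadjusted p under 0.05, against 8.46% of all genes for lower and 5.34% for higher values. Mki67 was 6.29, 6.70 and 8.78 in sham and 5.52, 6.73, 5.35 and 6.14 after HD (log2 fold change −1.32, standard error 0.83). Sham replicate 3 was the highest of its group for 37 of the 38 genes, and without it the median was −0.07, so that the size of the median rested on this mouse. Ccnb2 and Bub1b did not overlap between the groups and were lower in HD, against 7.61% of all genes. Bub1b was 5.07, 4.77 and 5.51 in sham and 4.68, 4.65, 4.61 and 4.57 after HD. Above sham were Bub1 (0.23), Ndc80 (0.12), Kif22 (0.08), Cenpe (0.07) and Kif23 (0.06), while the dimmer probe sets of Bub1, Kif22 and Kif23 differed by −0.45, −0.47 and −0.36. Adjusting for plate column gave a median of −0.82. Luminal markers again lay lower, with a median of −0.66 and 2 of 11 past the threshold in limma, and their part in the result was not tested.

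After LD at 4 hr in C57BL/6, 35 of the 38 genes lay above sham, with a median of 0.22. In limma none passed, nor did any gene of the array (0.0%), and none had an unadjusted p under 0.05, against 2.08% of all genes for lower and 2.46% for higher values. Mki67 was 6.20, 8.04, 9.47 and 6.93 after LD, which ran from below the lowest sham array to above the highest. Cdk1 was 5.09, 7.30, 8.14 and 6.69 after LD and 5.45, 6.00 and 7.62 in sham. The direction turned with single mice: leaving out LD replicate 3 gave a median of −0.11, sham replicate 1 −0.02 and sham replicate 3 0.61, and adjusting for plate column gave −0.22. Between HD and LD at 4 hr, 36 of 38 genes were lower after HD, with a median of −0.73. Of the 38, 5 had an unadjusted p under 0.05 (Mki67, Cdk1, Ccnb2, Cenpa and Cks2), a share close to that of all genes (11.4%). None of them passed in limma, where 1.58% of all genes did. Without LD replicate 3 the median was −0.31.

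**Figure D4:**
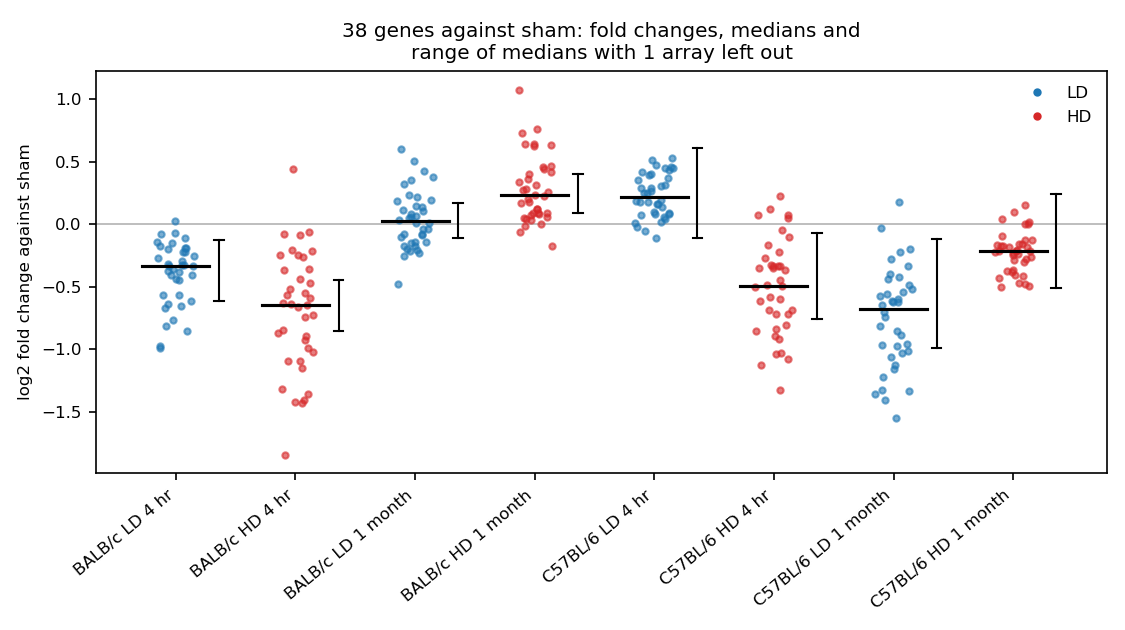
Log2 fold changes against sham of 38 genes (points) in each of 8 comparisons, with the median as a black bar and, as a bracket, the range of medians with each array left out in turn. The BALB/c HD 4 hr bracket runs from −0.86 to −0.44, while those of C57BL/6 LD 4 hr (−0.11 to 0.61) and C57BL/6 HD 1 month (−0.51 to 0.25) cross 0.

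At 1 month after LD, C57BL/6 had 37 of 38 genes below sham, with a median of −0.67 against 0.001 over all genes. No member of the group passed in limma, nor did any gene of the array (0.0%). At an unadjusted p under 0.05, 3 of the 38 were lower (Smc4, Prc1 and Cenpa), about the same share as over all genes (7.8%). At the thresholds of the study for LD, 11 were lower (Mki67, Ccna2, Cdk1, Bub1b, Aurkb, Cenpa, Tpx2, Prc1, Ect2, Cks2 and Smc4), against 1.5% of all genes. No gene had groups that did not overlap, against 4.26% of all genes that were lower without overlap.

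Prc1 was 6.21, 5.48, 8.30 and 5.11 in sham and 5.15, 5.34, 5.01 and 4.98 after LD (log2 fold change −1.16, standard error 0.54, adjusted p = 0.375 in limma). Cenpa was 6.16, 5.20, 8.69 and 5.60 in sham and 4.97, 5.40, 4.82 and 5.17 after LD (−1.32, standard error 0.62). Mki67 was 8.08, 6.18, 9.98 and 5.86 in sham and 6.11, 6.49, 5.67 and 5.62 after LD. In these genes sham replicate 3 was far above the rest, replicate 1 was next, and replicates 2 and 4 lay near the LD arrays.

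Smc4, a condensin subunit, was 9.03, 8.52, 9.88 and 8.60 in sham and 8.42, 8.54, 8.33 and 8.25 after LD (log2 fold change −0.62, adjusted p = 0.352 in limma). Without sham replicate 3 the median over the 38 genes was −0.11. Of the myoepithelial markers, 8 of 9 were lower after LD at an unadjusted p under 0.05 (none passed in limma), with a median of −0.70, and luminal markers had a median of −0.17, and their part in the result was not tested.

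At 1 month after HD, C57BL/6 had 32 of 38 genes below sham, with a median of −0.22. None passed in limma, where 0.982% of all genes did, and none had an unadjusted p under 0.05, against 10.1% of all genes for lower and 8.33% for higher values. Mki67 was 7.10, 6.82, 8.72 and 7.64 after HD, inside the span of the sham arrays. Without sham replicate 3 the median was 0.25, so that its sign hung on that mouse. It was −0.47 without the array with muscle transcripts, and adjusting for plate column gave −0.65. Against LD, which shares no sham array, HD arrays were higher for 37 of 38 genes, with a median of 0.48. In 12 genes, among them Top2a, Mki67, Cdk1 and Prc1, the HD and LD arrays did not overlap and HD was higher, against 2.96% of all genes. Mki67 was the single gene with an unadjusted p under 0.05 (log2 fold change 1.60, standard error 0.77, adjusted p = 0.543 in limma), against 4.89% of all genes, and no gene of the array passed (0.0%). The median was 0.23 without HD replicate 3.

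In BALB/c at 1 month the differences from sham were small. After LD, 17 of 38 genes were below sham, with a median of 0.03, and none had an unadjusted p under 0.05, against 1.81% of all genes for lower and 4.57% for higher values. None of the 38, and no gene of the array, passed in limma (0.0%). With 2 LD arrays, Kif23 and Ect2 did not overlap sham and were higher, against 15.7% of all genes, and Kif22 did not and was lower, against 8.04%. The sign of the median changed with single arrays left out (−0.11 to 0.17) and adjusting for plate column gave −0.28.

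After HD at 1 month, 35 of 38 genes were above sham in BALB/c, with a median of 0.23, and Bub1 (−0.18), Kif4 (−0.06) and Aurkb (−0.01) were below. The dimmer probe sets of Bub1 and Aurkb differed by 0.35 and 0.09. In limma none passed, where 0.0169% of all genes did, and none had an unadjusted p under 0.05, against 5.68% of all genes for lower and 4.89% for higher values. Mki67 was 7.38, 5.37 and 5.66 in sham and 7.92, 6.56, 7.99 and 6.40 after HD (log2 fold change 1.08, standard error 0.63). The higher 2 of these HD arrays, replicates 1 and 3, are those with lymphocyte and muscle transcripts. Without the arrays with transcripts of another tissue the median was −0.03, with the plate column it was −0.30, and leaving out single arrays gave 0.09 to 0.41. T cell markers had a median of 0.76 and luminal markers one of −1.14 in this comparison, and their part in the result was not tested.

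Between the times, sham arrays of BALB/c were lower at 1 month than at 4 hr for 37 of 38 genes, with a median of −0.62. At an unadjusted p under 0.05, 15 were lower, against 3.85% of all genes. None of them passed in limma, nor did any gene of the array (0.0%). Cdk1 was 7.30, 7.70 and 5.80 at 4 hr and 6.33, 5.06 and 4.70 at 1 month (log2 fold change −1.57, standard error 0.62, adjusted p = 0.712 in limma), with some overlap. Without sham 4 hr replicate 2 the median was −0.36. This sham difference enters every comparison of the responses at both times: the HD response was 0.91 higher at 1 month by the median, with 19 genes at an unadjusted p under 0.05, against 4.99% of all genes, and none past the threshold in limma, where 0.119% of all genes were. Without the arrays with transcripts of another tissue that median was 0.58. In C57BL/6 the sham difference between the times had a median of 0.14, and −0.43 without sham 1 month replicate 3, and the HD response differed by 0.21, with −0.15 to 0.75 over single arrays left out. Without the array with muscle transcripts these medians were 0.42 and −0.03.

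Between the strains, no response differed for any of the 38 genes at an adjusted p under 0.05 in limma, and none of the array did (0.0%). The median of the BALB/c minus C57BL/6 difference was −0.58 for LD at 4 hr, −0.17 for HD at 4 hr, 0.80 for LD at 1 month and 0.53 for HD at 1 month. At 4 hr, single arrays left out gave −0.93 to −0.27 for LD and −0.58 to 0.07 for HD. At an unadjusted p under 0.05 only Prc1 differed, by 1.67 for LD at 1 month, against 5.9% of all genes for higher values. The values at 1 month were 0.12 for LD and −0.06 for HD without C57BL/6 sham replicate 3. In sham glands the median strain difference was −0.27, with no gene past the threshold in limma (8.83% of all genes) and none at an unadjusted p under 0.05, against 10.8% of all genes for lower and 12.4% for higher values. Without C57BL/6 sham 1 month replicate 3 it was 0.03, and without the arrays with muscle transcripts −0.45.

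Levels cannot be compared between blood and MG, whose arrays differ in their whole distribution. In blood the strains differed by a median of 0.03 (BALB/c minus C57BL/6), with none past the threshold in limma, where 0.44% of all genes were. At an unadjusted p under 0.05, Racgap1 was higher in BALB/c (0.45, standard error 0.18, adjusted p = 0.556 in limma), against 6.2% of all genes, and Ndc80 lower (−0.41, standard error 0.16, adjusted p = 0.521 in limma), against 2.34%.

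Racgap1 was 6.14, 5.83, 5.34 and 6.10 in BALB/c and 5.30, 5.29, 5.50 and 5.51 in C57BL/6, with the lowest BALB/c array among those of C57BL/6. Most of the genes moved together from mouse to mouse here too (median r 0.93 with the mean of the others after group means, 30 genes above 0.8). Ube2c (r = −0.069), Nusap1 (r = 0.108) and Kif23 (r = 0.111) followed the others least. Nusap1 was 10.07, 8.87, 8.43 and 9.85 in BALB/c and 10.21, 10.37, 10.54 and 8.32 in C57BL/6. Mki67 was 8.57, 6.93, 6.55 and 7.99 in BALB/c and 5.86, 6.27, 6.78 and 8.21 in C57BL/6, so that within C57BL/6 replicate 4 was highest for Mki67 and lowest for Nusap1.

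That array, C57BL/6 replicate 4, had liver transcripts 8.63 above the middle of the blood arrays. Its B cell, macrophage, neutrophil and erythroid lists lay at −1.805, −1.083, −0.946 and −0.848 from that middle, and its T cell list at 0.003. BALB/c replicate 2 had liver transcripts 3.29 above. Without both arrays, an alternative added after the data were seen, the median r was 0.956. The r of Nusap1 was 0.99 and that of Ube2c 0.959, while that of Kif23 was −0.677. The median strain difference was then 0.43, and with all arrays but 1 it ran from −0.16 to 0.24. The part of these transcripts in the result was not tested.

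**Figure D5:**
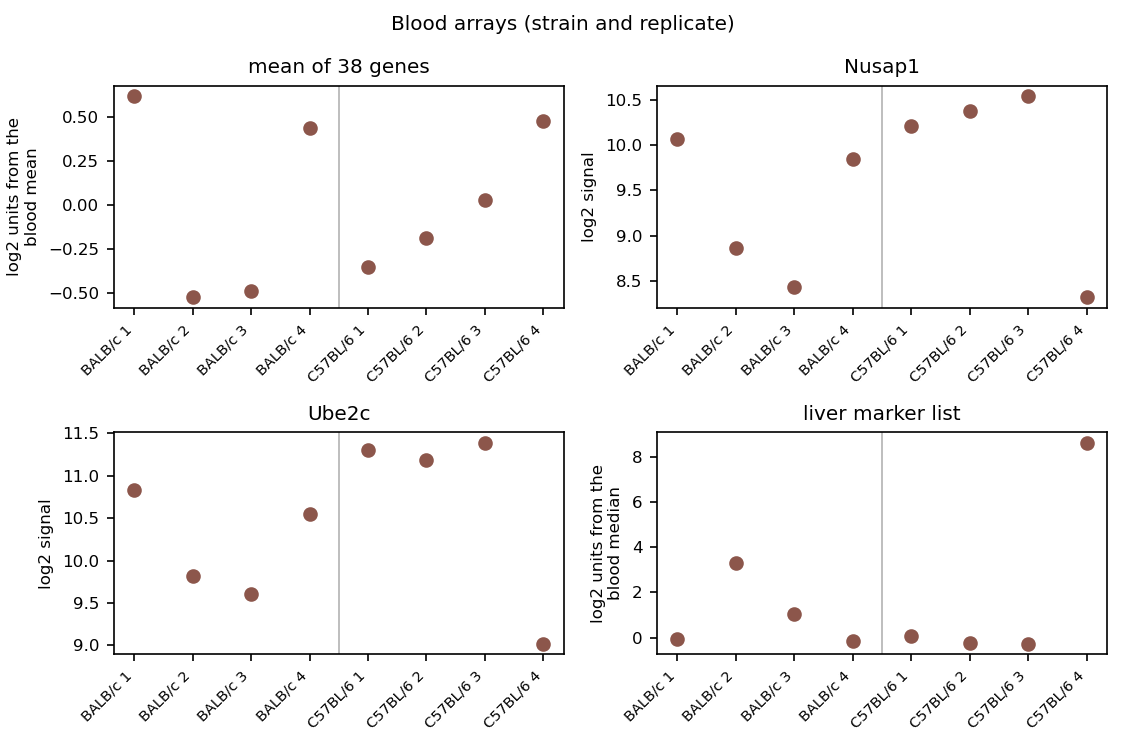
For 8 blood arrays by strain, the panels give the mean of 38 genes, the log2 signals of Nusap1 and Ube2c and the liver marker list. C57BL/6 replicate 4 is highest in the list of liver markers (8.63) and lowest for Nusap1 (8.32).

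Other genes of the pathway were followed in the HD 4 hr comparisons. Of 19 p53 target genes, 12 in BALB/c and 9 in C57BL/6 passed in limma and were higher, where 5.9% and 0.872% of all genes passed in either direction. Cdkn1a, which encodes the CDK inhibitor p21, rose by 3.36 in BALB/c (standard error 0.31, adjusted p = 6.17e-06 in limma) and by 2.54 in C57BL/6 (standard error 0.42, adjusted p = 0.00289 in limma). Ccng1 rose by 1.29 and 0.97 and Mdm2 by 1.10 and 1.16. After group means were taken off, Cdkn1a, Ccng1 and Mdm2 had r = −0.037, −0.126 and 0.074 with the mean of the 38 mitosis genes. Differences between the doses are removed from these r values, which therefore say nothing about the changes after HD.

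Of 49 other mitosis genes, 38 were below sham in BALB/c after HD at 4 hr (18 at an unadjusted p under 0.05, against 11.8% of all genes) and 34 in C57BL/6, and none passed as lower. The one that passed, where 5.9% of all genes did in BALB/c and 0.872% in C57BL/6, was higher. Gtse1, which binds p53 and microtubules, was 4.27, 4.32 and 4.24 in BALB/c sham and 5.51, 5.42, 5.97 and 5.54 after HD. It rose by 1.33 (standard error 0.14, adjusted p = 1.96e-05 in limma), and in C57BL/6 by 1.01 (standard error 0.18, adjusted p = 0.00831 in limma). Cep55, close to the 38 genes in its pattern, differed by −1.25 in BALB/c (standard error 0.38, adjusted p = 0.0662 in limma).

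Genes of the preceding S phase were followed too. Of 14 replication licensing genes, 12 in BALB/c and all 14 in C57BL/6 were below sham after HD at 4 hr, with medians of −0.39 and −0.37 and none past the threshold in limma (5 and 6 lower at an unadjusted p under 0.05, against 11.8% and 8.46% of all genes). Mcm6, of the replicative helicase, differed by −1.69 in BALB/c (adjusted p = 0.0511 in limma). Of 18 DNA synthesis genes, 15 and 18 were below sham, and the DNA ligase Lig1 fell by 1.03 in BALB/c (standard error 0.28, adjusted p = 0.0382 in limma). It was the one call, where 5.9% of all genes passed in BALB/c and 0.872% in C57BL/6. Of 16 regulators, Cdkn1a and Tfdp1, the partner of E2F factors, passed in BALB/c, against the same 5.9% of all genes, the latter at −0.37 (adjusted p = 0.0458 in limma). Foxm1 differed by −0.06 in BALB/c and −0.13 in C57BL/6, E2f1 by −0.17 and −0.20, and Mybl2 by −0.19 and −0.01, all at the low levels given above.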

How the data were processed

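The MG and nucleated blood cells were measured on Affymetrix HT_MG-430A arrays, 43 of MG and 8 of blood. The authors deposited log2 values for 22626 probe sets after RMA, and per the labels limma was among their tools. Versions are not given in the sources used here. The deposited log2 values were used as they stand, 0 columns were left unassigned, and no pair of arrays held identical values. Probe sets were named through GEO's platform annotation: 18003 had 1 symbol, 287 several and 4336 none. Each gene was taken at its brightest probe set.

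Contrasts of group means were fitted with limma 3.58.1 in R 4.3.3 over all MG arrays of a strain, 43 MG arrays for strain differences in response, 13 sham arrays for strain at baseline and 8 blood arrays. The Benjamini-Hochberg adjustment ran across the 22626 probe sets, with a call at an adjusted p under 0.05, and shares of all genes are over 11807 genes. The fit was tested on simulated data. Summaries, promoter searches and figures used Python 3.11.15 with pandas 2.3.3, numpy 2.4.6 and matplotlib 3.10.9. Arrays carry no read depth, and their number, 2 to 4 a group, limits the precision.

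The genes named were the 42 listed, with values by array for a fixed set of 15, the 6 lowest and 6 highest fold changes in a comparison, and the 4 smallest p of each further list with set regulators. The genes and lists were chosen with earlier results of these data known. Alternatives were a replicate block, array weights, dim probe sets left out, quantile normalization, the mean of a gene's probe sets, the plate column as a covariate, only the groups compared, the thresholds of the study, arrays with transcripts of another tissue left out, and each array left out in turn.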

Additional observations from a re-analysis of the deposited data

Results flagged for a closer look

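Of 16 values followed in groups of 4 arrays, 160 sets of values were examined for an array far from the others (its gap to the nearest, over the range of the group), and 8 stood out. At about 1 in 20, chance alone would give about this number. The genes moved together over the same arrays, so that the sets are not independent and this number is only a rough guide. Several of the flags fell on the same array. In C57BL/6 HD at 1 month, replicate 3, the array with raised T and B cell lists, was highest for Birc5 (gap over range 0.945, with 6.90 against 4.86, 4.97 and 4.97), Cdk1 (0.926, with 7.34 against 6.01, 5.96 and 6.06) and Prc1 (0.833, with 6.69 against 5.76, 5.70 and 5.86). In C57BL/6 sham at 1 month, replicate 3 was highest for Plk1 (0.879, with the other 3 arrays at 4.62 to 4.83). Aurka stood out in C57BL/6 LD at 1 month, where replicate 2 was highest (0.837, with 5.49 against 4.83 to 4.94). In BALB/c HD at 4 hr, replicate 3 was highest for Kif11 (0.857, with 5.10 against 4.62 to 4.69). In C57BL/6 blood, replicate 4, the array with liver transcripts, was highest for Aurka (0.84, with 5.43 against 4.15 to 4.35) and lowest for Nusap1 (0.853, with 8.32 against 10.21 to 10.54).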

How the results depend on the processing

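Counts of the 38 genes past an adjusted p under 0.05 stayed within 1.5 times the reported count in 371 combinations of comparison and alternative and moved further in 16. In every comparison but BALB/c HD against LD at 4 hr the reported count was 0. An unchanged count there means only that no gene gained a call. In BALB/c HD against sham at 4 hr the count was 0, but 1 with the mean of a gene's probe sets (Aurkb), 2 with only the groups compared (Top2a and Ttk), 5 at the thresholds of the study and 0 to 6 with each array left out. For BALB/c HD against LD at 4 hr the count of 1 (Bub1) became 0 with the mean of probe sets, with the plate column as a covariate and without the arrays with transcripts of another tissue. It was 0 to 1 with each array left out. With dim probe sets left out it was 0 because the Bub1 probe set was itself among those removed, so that this setting could not keep the call. At the thresholds of the study the count was 4 in BALB/c LD at 4 hr and 11 in C57BL/6 LD at 1 month, in place of 0. Leaving out dim probe sets kept 4 to 6 of the 38 genes in the MG. Apart from the removal of Bub1 as a dim probe set, the cause of these changes was not tested.

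With the replicate number as a block, the count was 1 in BALB/c HD against LD at 4 hr and 0 in every other comparison, as without it. The replicate numbers did not pair the samples: residuals of arrays with the same number correlated by 0.0145 on average among BALB/c arrays (lowest −0.239) and by 0.0124 among C57BL/6 arrays (lowest −0.371), where arrays of unlike number gave −0.0052 and −0.00412. Over the combinations of a named gene or a median, a comparison and an alternative, no called value changed sign, 17 gained a call and 15 lost one, and 483 values without a call changed sign or, for a median over the 38 genes, moved by more than the spread between arrays.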
